A study of Homo sapiens with 12 samples.

Results

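The 43 genes described here are targets of type I interferon, measured as mRNA in HT-29, an established line from a human colorectal adenocarcinoma. They were taken by name from the 19128 gene symbols of the deposited expression table, with the line of highest mean kept for each symbol, and all 43 were found and tested among 10364 genes. TBZ combines 20 ng/mL of the cytokine TNFα with 2 µM of BV6, an antagonist of the IAP family of apoptosis inhibitors, and 30 µM of the caspase inhibitor zVAD-fmk. The mixture is used to bring on necroptosis, a lytic death carried out by the pseudokinase MLKL. One experiment had 8 libraries, a pair for each of 4 groups: HT-29 with a lentiviral knockdown of MLKL (shMLKL) after 5 h of TBZ and under DMSO, and cells with a control hairpin against GFP (shGFP) after 5 h of TBZ and under DMSO. The other had 4 single libraries: parental HT-29 cells after 4 h of TBZ and under DMSO, and shMLKL cells after 12 h of TBZ and under DMSO. All groups share the HT-29 background, the labels do not say whether a hairpin line is a clone or a pool, and nothing in them says whether the pair of libraries in a group comes from distinct cultures. The p-values therefore measure only the spread between these libraries, which may be technical.

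Type I interferons bind a receptor of IFNAR1 and IFNAR2, whose kinases phosphorylate STAT proteins, STAT2 among them. Together with IRF9 they form the complex ISGF3, which binds interferon-stimulated response elements (ISRE) in promoters. The resulting proteins sense viral RNA, block its translation, cut it, or hold virus at membranes. In gut epithelium type III interferons such as IFNL1 act through another receptor to the same complex, and TNF can raise IRF1 through NF-κB.

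Of the 43 members 35 had an entry in the RefSeq promoter table (GRCh38.p14; 250 bases before to 50 after the gene start). The ISRE core searched was GAAA, any 2 bases, GAAA, on either strand, with overlapping matches allowed. It was in 22 of the 35 member promoters (62.9%), against 3.65% of the 27305 promoters of the same length with 1 entry a symbol. The interferon gamma activated site (GAS, TTCNNNGAA, the same on both strands) was in 28.6% of the member promoters and 7.88% of all promoters. A kappaB site was in 22.9% of the member promoters and 10.8% of all promoters. A match is a match of letters, not a site shown to be bound, and a promoter without one may hold the element elsewhere.

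**Figure D1:**
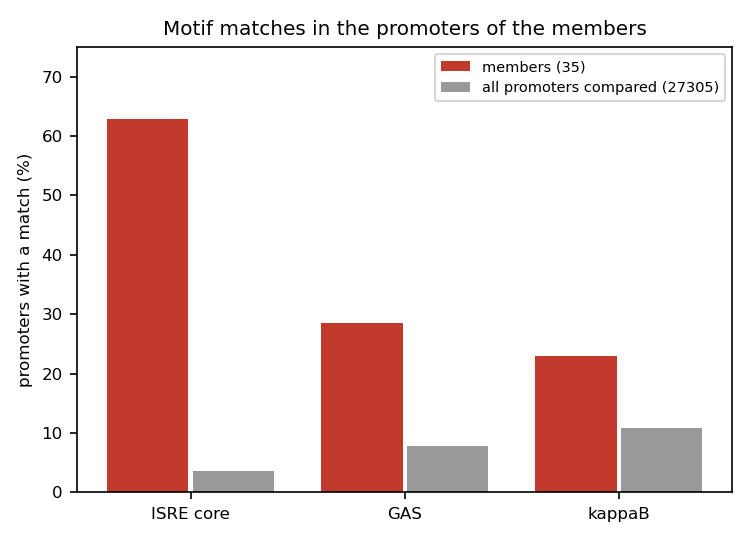
Share of promoters (%, from 0) with at least 1 match to each motif, for the 35 members with a RefSeq promoter (red) and all 27305 promoters compared (grey). The ISRE core was in 62.9% of the member promoters, against 3.65% of all; GAS and kappaB sites were in 28.6% and 22.9% of the member promoters.

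The following windows of 60 bases, all upstream of the start, are shown for members whose responses are described below. They are read 5′ to 3′ on the strand of the gene, with the ISRE core or its reverse complement in capitals. BST2 and ISG15 have overlapping copies, and IFIT1, IFI27 and IFI6 have separate pairs.
ISG15 (chr1:1013365-1013424, forward strand): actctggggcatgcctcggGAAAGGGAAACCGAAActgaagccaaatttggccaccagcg
IFIT1 (chr10:89392495-89392554, forward strand): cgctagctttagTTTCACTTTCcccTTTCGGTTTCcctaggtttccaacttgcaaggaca
IFI27 (chr14:94110616-94110675, forward strand): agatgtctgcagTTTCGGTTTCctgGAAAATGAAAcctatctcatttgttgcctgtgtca
IFI6 (chr1:27672251-27672310, reverse strand): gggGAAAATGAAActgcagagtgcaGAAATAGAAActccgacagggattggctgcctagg
BST2 (chr19:17405720-17405779, reverse strand): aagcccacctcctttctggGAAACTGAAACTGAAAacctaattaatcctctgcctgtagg
IFIH1 (chr2:162318685-162318744, reverse strand): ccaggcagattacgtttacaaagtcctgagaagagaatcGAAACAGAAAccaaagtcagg
ISG20 (chr15:88638922-88638981, forward strand): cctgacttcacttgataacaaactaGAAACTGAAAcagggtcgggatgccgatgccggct

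IRF1 had no ISRE match in its window. Its promoter is shown over 100 bases with the GAS match (first) and the kappaB match (second) in capitals.
IRF1 (chr5:132490804-132490903, reverse strand): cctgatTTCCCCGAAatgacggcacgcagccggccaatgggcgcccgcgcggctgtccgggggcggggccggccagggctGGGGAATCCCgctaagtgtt

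The deposited values are FPKM, fragments scaled to transcript length and library size. Without counts the sequencing depth is unknown, and precision rests on how many libraries there are. Within groups, Pearson correlations of log2 values were 0.989 to 0.992, and no pair was identical. MLKL, the target of the knockdown, had 0.651 and 0.395 FPKM in shMLKL TBZ libraries, 0.606 and 0.545 in shMLKL DMSO, 1.98 and 2.03 in shGFP TBZ and 3.95 and 3.89 in shGFP DMSO. Both shMLKL groups lay below both shGFP groups. In the single libraries MLKL had 6.16 FPKM after 4 h of TBZ and 6.31 under DMSO in parental cells. In shMLKL cells it had 2.14 after 12 h and 0.854 under DMSO there. The epithelial markers EPCAM and CDH1 were at 313 FPKM or more and at 80.5 FPKM or more in every library, whereas CDX1 and CDX2, intestinal transcription factors, were at or near 0, and KRT8 and KRT18 were listed at 0 in 7 of the 8 libraries, which can be a failed estimate. All 10 fibroblast and endothelial markers together summed to 0.0804 to 0.513 FPKM, the 4 markers of plasmacytoid dendritic cells, a main source of type I interferon in the body, to 0.0312 to 0.238, and the leukocyte marker PTPRC was at 0.0609 at most. The 14 leukocyte markers summed to 604 to 645 FPKM in shMLKL TBZ, 612 to 664 in shMLKL DMSO, 527 to 530 in shGFP TBZ and 605 to 613 in shGFP DMSO, nearly all of it LYZ, and their part in the results was not tested. Changes are differences of log2(FPKM + 1), which understates the change of genes near 0. A gene was called at a limma Benjamini-Hochberg adjusted p under 0.05 over all 10364 genes, with 4 residual degrees of freedom.

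TBZ raised most of the module in shMLKL cells and less of it in shGFP cells. In shMLKL cells 32 of 43 members were called higher and 0 lower, against a background of 20.0% of all genes higher and 17.6% lower. No member was lower at an unadjusted p under 0.05 either, in limma, the one tool run. The median difference of the members was 0.48, a 1.39-fold change, and that of all genes was 0.00. In shGFP cells 20 members were called higher and 9 lower, against 19.1% and 37.3% of all genes, and the medians were 0.14 for the members and −0.12 for all genes. All 20 members called higher in shGFP cells were called higher in shMLKL cells too. How many of all genes were called higher in both lines was not counted. These contrasts compare different libraries, but the same fit gave the spread of both, so their calls are not independent. The difference between the responses, tested itself as shMLKL minus shGFP, was called above 0 for 24 members and below 0 for 2, against 14.6% and 7.66% of all genes, with a median of 0.46 for the members and 0.10 for all genes. The 9 lower calls in shGFP cells became 5 without shGFP DMSO 2 and 4 without shGFP TBZ 2 or with no filter on low values, the 0 lower calls in shMLKL cells became 1 without shMLKL TBZ 1, and the 24 calls of the difference became 14 with no filter. Past 2-fold stood 10 members in shMLKL and 5 in shGFP cells, for which the share of all genes was not counted. Fewer transcripts per cell and fewer responding cells cannot be told apart in such bulk libraries.

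**Figure D2:**
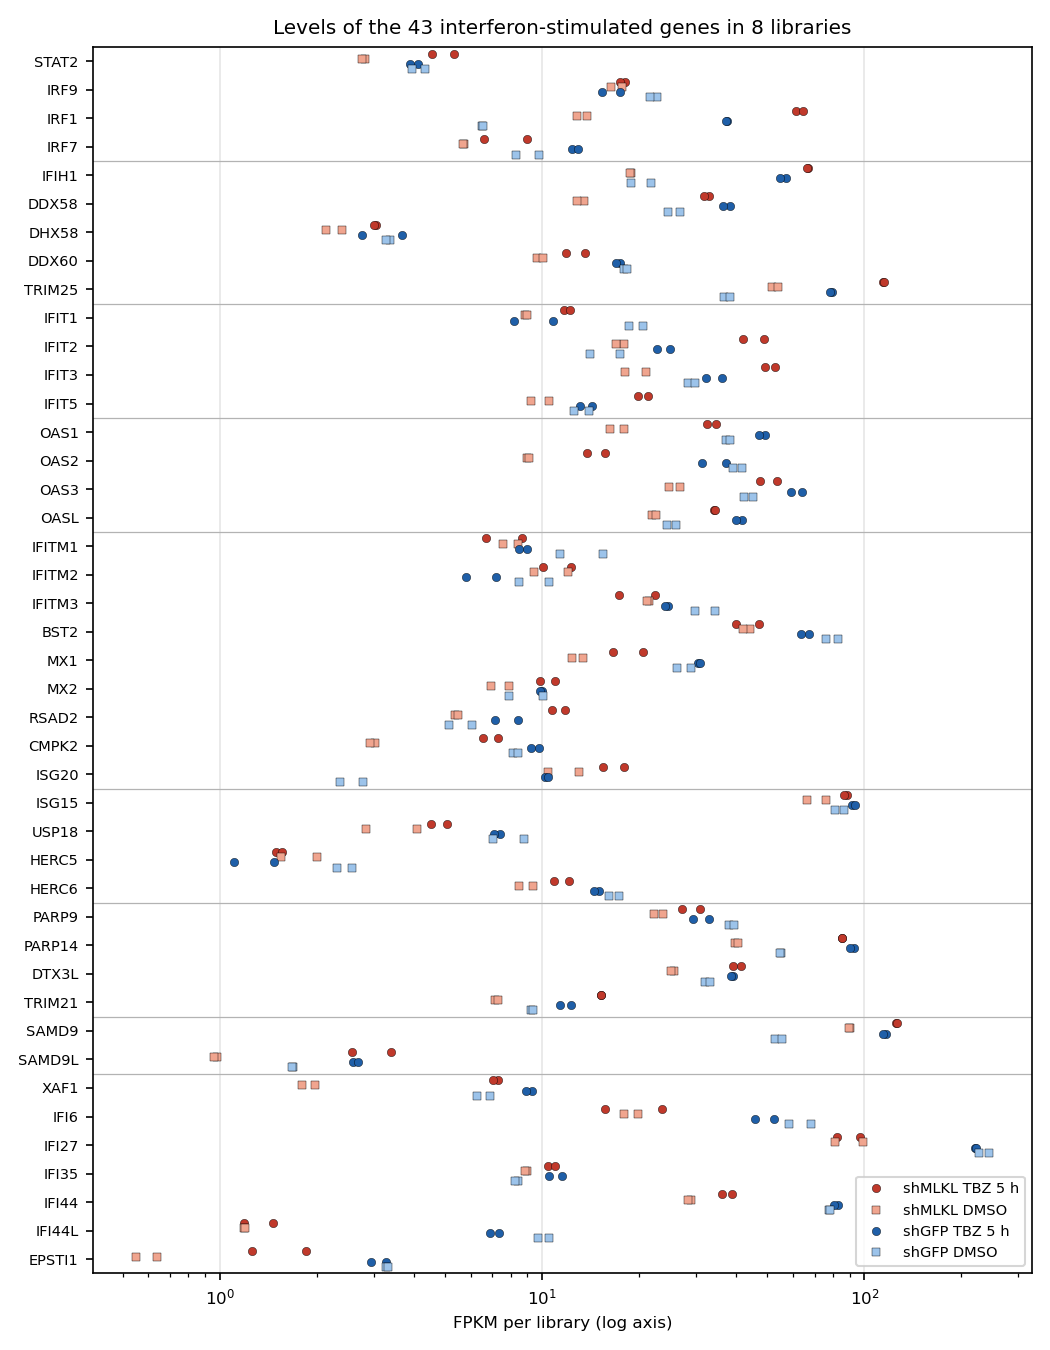
FPKM of each member (rows, grouped by role) in each of the 8 libraries on a log axis. Circles are TBZ at 5 h and squares DMSO, red for shMLKL and blue for shGFP. IRF1 and IFIH1 separate by treatment in both lines, whereas IFI27, IFI6 and IFI44L separate by line.

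Among the transcription factors IRF1 responded most, and the ISGF3 subunits divided. IRF1 (hg19 chromosome 5, 131817301 to 131826465, reverse strand), an activator induced by interferon gamma and by NF-κB, had 61.5 and 64.6 FPKM in shMLKL TBZ libraries and 13.8 and 12.8 in shMLKL DMSO. In shGFP cells it had 37.5 and 37.3 FPKM under TBZ and 6.51 and 6.58 under DMSO. The 4 groups did not overlap. It rose by 2.16 (SE 0.05, limma adjusted p = 1.29e-07) in shMLKL cells and by 2.35 (SE 0.05, adjusted p = 3.56e-08) in shGFP cells, the largest change of any member in either line. The difference of these effects, −0.18 (SE 0.07, limma adjusted p = 0.0901), was not called.

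STAT2 (hg19 chromosome 12, 56735382 to 56754037, reverse strand), the ISGF3 subunit that activates transcription, had 5.34 and 4.57 FPKM in shMLKL TBZ libraries and 2.82 and 2.77 in shMLKL DMSO. In shGFP cells the values were 4.11 and 3.88 under TBZ and 3.96 and 4.32 under DMSO, and here the groups overlapped. It rose in shMLKL cells (0.65, SE 0.08, limma adjusted p = 0.000708), stood at −0.04 in shGFP cells, and the effects differed by 0.69 (SE 0.12, adjusted p = 0.00648). IRF9 (hg19 chromosome 14, 24630422 to 24635774, forward strand), the DNA-binding subunit, had 18.1 and 17.5 FPKM in shMLKL TBZ libraries, 17.7 and 16.4 in shMLKL DMSO, 15.3 and 17.5 in shGFP TBZ and 22.8 and 21.6 in shGFP DMSO. It fell in shGFP cells (−0.42, SE 0.07, limma adjusted p = 0.00161) and moved by 0.06 (adjusted p = 0.556) in shMLKL cells. The difference of effects, 0.48 (limma adjusted p = 0.0144), was lost without shGFP DMSO library 1 (0.0701 at most over the alternatives). IRF7 (hg19 chromosome 11, 612555 to 615999, reverse strand), which sustains interferon gene transcription, had 8.97 and 6.62 FPKM in shMLKL TBZ libraries, 5.72 and 5.70 in shMLKL DMSO, 12.4 and 12.9 in shGFP TBZ and 8.28 and 9.78 in shGFP DMSO. It rose by 0.38 (limma adjusted p = 0.0474) in shMLKL and 0.44 (adjusted p = 0.0179) in shGFP cells, and both calls were fragile. The shMLKL call was lost under 13 alternatives, among them leaving out any library other than shMLKL TBZ 2 (adjusted p up to 0.2), and the shGFP call without shGFP DMSO 1, TBZ 1 or TBZ 2 (up to 0.116).

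Of the 5 genes for sensors of viral RNA and their helpers, 4 were called higher in shMLKL cells and 3 in shGFP cells, against 20.0% and 19.1% of all genes. IFIH1 (hg19 chromosome 2, 163123589 to 163175218, reverse strand) encodes MDA5, the sensor of long double-stranded RNA. It had 66.6 and 66.2 FPKM in shMLKL TBZ libraries and 18.9 and 18.8 in shMLKL DMSO, with 56.9 and 54.7 in shGFP TBZ and 18.9 and 21.8 in shGFP DMSO. TBZ and DMSO libraries were far apart in each line, and it rose 3.40-fold (1.76, SE 0.06, limma adjusted p = 1.26e-06) in shMLKL and 2.67-fold (1.41, SE 0.06, adjusted p = 1.59e-06) in shGFP cells. The difference of effects (0.35, limma adjusted p = 0.0294) was lost under 10 alternatives, among them leaving out any 1 TBZ library or any 1 shMLKL library (up to 0.114). DDX58 (hg19 chromosome 9, 32455300 to 32526322, reverse strand) encodes RIG-I, the sensor of 5′-triphosphate RNA. It had 33 and 31.8 FPKM in shMLKL TBZ libraries, 13.5 and 12.8 in shMLKL DMSO, 38.2 and 36.4 in shGFP TBZ and 24.5 and 26.7 in shGFP DMSO. It rose by 1.24 (SE 0.05, limma adjusted p = 2.78e-06) in shMLKL and 0.53 (SE 0.05, adjusted p = 0.000133) in shGFP cells, a difference of 0.72 (adjusted p = 0.000792). DHX58 (hg19 chromosome 17, 40253422 to 40264751, reverse strand), the regulatory sensor LGP2, had 3.05 and 3.02 FPKM in shMLKL TBZ libraries, 2.39 and 2.14 in shMLKL DMSO, 3.68 and 2.76 in shGFP TBZ and 3.38 and 3.29 in shGFP DMSO. Neither TBZ effect was called (0.31, limma adjusted p = 0.057 in shMLKL; −0.05, adjusted p = 0.727 in shGFP). TRIM25, the ubiquitin ligase that assists RIG-I, rose by 1.10 in shMLKL and 1.05 in shGFP cells. It averaged 115 ± 1.07 FPKM in shMLKL TBZ and 78.7 ± 0.903 in shGFP TBZ (SD, n = 2 each), against 52.8 ± 1.39 in shMLKL DMSO and 37.5 ± 0.964 in shGFP DMSO. DDX60, a helicase that promotes RIG-I signalling, rose in shMLKL cells (0.34) and stood at −0.07 in shGFP cells.

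The IFIT proteins, which bind foreign RNA ends and stop their translation, differed most between the lines. For all 4 the difference of effects was called above 0, against 14.6% of all genes. IFIT1 (hg19 chromosome 10, 91152303 to 91166244, forward strand) had 11.7 and 12.2 FPKM in shMLKL TBZ libraries and 8.87 and 8.96 in shMLKL DMSO. In shGFP cells it had 10.8 and 8.18 FPKM under TBZ and 20.5 and 18.6 under DMSO. The TBZ libraries were the higher ones in shMLKL cells and the lower ones in shGFP cells. It fell in shGFP cells (−0.98, SE 0.11, limma adjusted p = 0.000226), was called higher in shMLKL cells (0.38, SE 0.11, adjusted p = 0.0275) and had the largest difference of effects of the module (1.36, SE 0.15, adjusted p = 0.00117). The shMLKL rise was lost on leaving out any 1 of the 4 shMLKL libraries (adjusted p up to 0.135). IFIT3 (hg19 chromosome 10, 91087576 to 91100725, forward strand), the partner that stabilises IFIT1, had 49.1 and 52.7 FPKM in shMLKL TBZ libraries, 18.1 and 21 in shMLKL DMSO, 36.1 and 32.3 in shGFP TBZ and 28.4 and 29.8 in shGFP DMSO. It rose 2.53-fold in shMLKL cells (1.34, SE 0.08, limma adjusted p = 1.67e-05). In shGFP cells its difference was 0.22 (adjusted p = 0.0455), a call lost without shGFP DMSO 1, DMSO 2 or TBZ 1 or either shMLKL TBZ library (up to 0.241). IFIT2 averaged 45.4 ± 4.69 FPKM in shMLKL TBZ and 17.5 ± 0.646 in shMLKL DMSO (SD, n = 2 each), a rise of 1.32, and rose by 0.57 in shGFP cells. IFIT5 rose by 1.00 in shMLKL cells and stood at 0.04 in shGFP cells.

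The OAS enzymes, which make 2-5A to switch on the nuclease RNase L, rose in shMLKL cells in 4 of 4 cases, by 0.60 to 0.94. Of all genes 20.0% were called higher there. OAS2 (hg19 chromosome 12, 113416274 to 113449528, forward strand) had 15.7 and 13.8 FPKM in shMLKL TBZ libraries, 8.98 and 9.14 in shMLKL DMSO, 37.3 and 31.4 in shGFP TBZ and 39.1 and 41.8 in shGFP DMSO. Every shMLKL library lay below every shGFP library. It rose in shMLKL cells (0.65, SE 0.09, limma adjusted p = 0.00102), stood at −0.23 (adjusted p = 0.0545) in shGFP cells, and the effects differed by 0.88 (adjusted p = 0.00315). OAS1, OAS3 and the catalytically inactive OASL rose in shGFP cells too, by 0.34, 0.48 and 0.67.

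The restriction factors of membranes and virions did not move as one group. The IFITM proteins, which stop viral fusion, and BST2, the tether of budding virions, were uncalled in shMLKL cells (−0.11 to 0.06) and called lower in shGFP cells: IFITM1 by −0.55, IFITM2 by −0.48, IFITM3 by −0.39 and BST2 by −0.27. The calls of IFITM1 and IFITM3 were lost without shGFP DMSO 2, TBZ 1 or TBZ 2, that of IFITM2 without shGFP DMSO 2 or TBZ 2 and that of BST2 without shGFP DMSO 1 or TBZ 2 (adjusted p up to 0.169), and the IFITM genes are near-identical copies whose reads the authors' counting could split. RSAD2, the antiviral enzyme viperin, and its neighbour CMPK2, a nucleotide kinase, rose by 0.93 and 0.99 in shMLKL cells and by 0.41 and 0.18 in shGFP cells. The CMPK2 call in shGFP cells was lost without any 1 of the shGFP libraries or of the shMLKL DMSO libraries (up to 0.196) and the RSAD2 call without shGFP DMSO 1 or TBZ 1 (up to 0.0573). The dynamin-like GTPases MX1 and MX2 rose in shMLKL cells (0.49 and 0.44) and were uncalled in shGFP cells (0.15 and 0.13). The MX2 call was lost without shMLKL DMSO 2 or TBZ 1 (adjusted p up to 0.0926). ISG20 (hg19 chromosome 15, 89178868 to 89199575, forward strand), an exonuclease that degrades RNA, responded more in shGFP cells. It had 15.5 and 17.9 FPKM in shMLKL TBZ libraries and 10.4 and 13 in shMLKL DMSO, with 10.2 and 10.4 in shGFP TBZ and 2.78 and 2.36 in shGFP DMSO. The shGFP DMSO libraries were low and the other 6 were at 10.2 or more. It rose 3.17-fold in shGFP cells (1.66, SE 0.11, limma adjusted p = 1.41e-05) and 1.40-fold in shMLKL cells (0.48, SE 0.11, adjusted p = 0.0112), and the effects differed by −1.18 (SE 0.16, adjusted p = 0.00232). The shMLKL call was lost without shMLKL DMSO 1 or TBZ 2 (up to 0.0755).

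In the ISG15 group of 4 members, 2 were called higher and 0 lower in shMLKL cells at 5 h, and 0 higher and 1 lower in shGFP cells. Of all genes 20.0% were called higher and 17.6% lower in shMLKL cells, and 19.1% and 37.3% in shGFP cells. The 1 lower call is under that share. ISG15, a ubiquitin-like modifier, averaged 87.4 ± 0.987 FPKM in shMLKL TBZ and 71.2 ± 6.92 in shMLKL DMSO, and 92.5 ± 1.71 in shGFP TBZ and 83.7 ± 3.48 in shGFP DMSO (SD, n = 2 each). It was called higher in shMLKL cells (0.29, limma adjusted p = 0.00842) and not in shGFP cells (0.14, adjusted p = 0.0869). HERC5, the ligase for ISG15, was called lower in shGFP cells (−0.59) and stood at −0.13 in shMLKL cells. Its relative HERC6 rose in shMLKL cells (0.33). USP18, which removes ISG15 and restrains receptor signalling, was uncalled in both lines (0.39, adjusted p = 0.0703 in shMLKL; −0.10, adjusted p = 0.57 in shGFP).

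PARP9, PARP14, DTX3L and TRIM21 rose in shMLKL cells in 4 of 4 cases, against 20.0% of all genes called higher. PARP14, an ADP-ribosyltransferase, rose by 1.07 and TRIM21, an antibody receptor of the cytosol, by 0.98, with 0.73 and 0.32 in shGFP cells. DTX3L, a ubiquitin ligase, and PARP9, its binding partner, overlap at their starts on opposite strands of chromosome 3, where reads may not be told apart if counted without strand. DTX3L rose in both lines (0.65 in shMLKL, 0.25 in shGFP), whereas PARP9 was called higher in shMLKL cells (0.32, lost without shMLKL DMSO 2 or TBZ 1, adjusted p up to 0.0746) and lower in shGFP cells (−0.31, lost without shGFP DMSO 2 or TBZ 2, up to 0.0594). The difference of effects for PARP9 was 0.63 (limma adjusted p = 0.00635).

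SAMD9 (hg19 chromosome 7, 92728826 to 92747336, reverse strand), an antiviral translation inhibitor, had 125 and 126 FPKM in shMLKL TBZ libraries, 89.9 and 89.8 in shMLKL DMSO, 117 and 114 in shGFP TBZ and 52.9 and 55.3 in shGFP DMSO. The 4 groups did not overlap and lay closest under TBZ. It rose by 0.48 in shMLKL cells (SE 0.03, limma adjusted p = 3.85e-05) and by 1.08 in shGFP cells (SE 0.03, adjusted p = 2.76e-07), a difference of −0.60 (adjusted p = 0.000232). Its adjacent paralog SAMD9L rose by 1.01 in shMLKL and 0.44 in shGFP cells, at levels of at most 2.99 ± 0.591 FPKM (SD, n = 2).

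Of the other 7 members, 4 were called higher and 0 lower in shMLKL cells, against 20.0% and 17.6% of all genes. In shGFP cells 2 were called higher and 1 lower, against 19.1% and 37.3%, and these counts are not read as a result about the members. XAF1 changed most in shMLKL cells and IFI44L in shGFP cells, whereas IFI27 and IFI6 were uncalled in both lines. XAF1 (hg19 chromosome 17, 6659156 to 6678964, forward strand), an antagonist of the apoptosis inhibitor XIAP, had 7.28 and 7.02 FPKM in shMLKL TBZ libraries, 1.80 and 1.98 in shMLKL DMSO, 9.32 and 8.89 in shGFP TBZ and 6.29 and 6.90 in shGFP DMSO. After TBZ the shMLKL libraries stood just above the shGFP DMSO libraries. It rose by 1.50 (SE 0.07, limma adjusted p = 3.75e-06) in shMLKL and 0.41 (SE 0.07, adjusted p = 0.00152) in shGFP cells, a difference of 1.08 (adjusted p = 0.000341). IFI27 (hg19 chromosome 14, 94577079 to 94583036, forward strand), a mitochondrial and nuclear membrane protein, had 97.1 and 82.4 FPKM in shMLKL TBZ libraries, 99 and 81 in shMLKL DMSO, 221 and 222 in shGFP TBZ and 227 and 244 in shGFP DMSO. IFI6 (hg19 chromosome 1, 27992572 to 27998724, reverse strand), a related membrane protein, had 23.5 and 15.7 FPKM in shMLKL TBZ libraries, 19.8 and 18 in shMLKL DMSO, 45.9 and 52.4 in shGFP TBZ and 58.3 and 68.1 in shGFP DMSO. Neither gene was called for TBZ in either line, with differences of −0.00 and 0.03 in shMLKL and −0.09 and −0.36 in shGFP cells. IFI44L (hg19 chromosome 1, 79086067 to 79111830, forward strand), whose product dampens interferon responses, had 1.46 and 1.19 FPKM in shMLKL TBZ libraries, 1.19 and 1.20 in shMLKL DMSO, 7.33 and 6.88 in shGFP TBZ and 9.70 and 10.5 in shGFP DMSO. It fell in shGFP cells (−0.45, SE 0.08, limma adjusted p = 0.00227) and stood at 0.08 in shMLKL cells. IFI44, IFI35 and EPSTI1 rose in shMLKL cells by 0.38, 0.24 and 0.67. The IFI35 call was lost without shMLKL DMSO 1, DMSO 2 or TBZ 2 (adjusted p up to 0.0777).

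**Figure D3:**
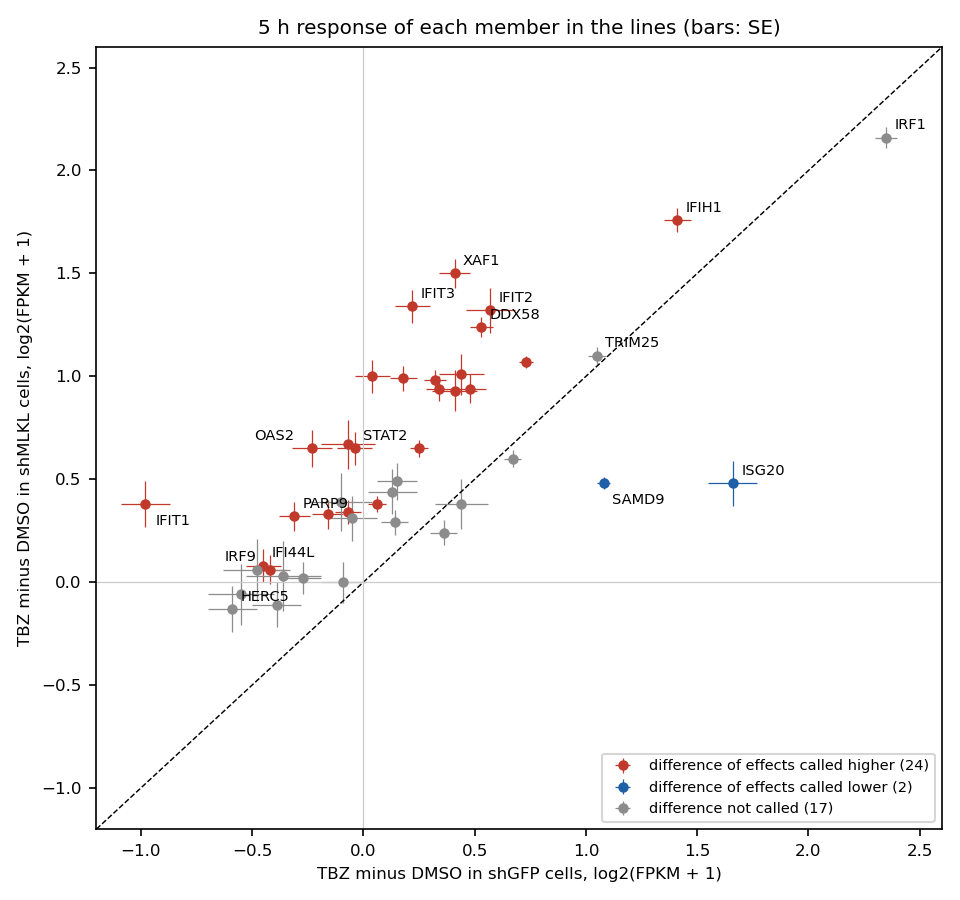
TBZ minus DMSO at 5 h on the log2(FPKM + 1) scale in shMLKL cells (vertical) against shGFP cells (horizontal), 1 point a member, bars SE from 2 libraries a group. The dashed line marks equal responses: 24 members called above it are red, ISG20 and SAMD9 called below it are blue, and IRF1 lies near it at 2.16 and 2.35.

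The responses started from unequal DMSO levels. Under DMSO 33 of the 43 members were lower in shMLKL than in shGFP cells and 4 were higher, against 44.8% of all genes lower and 18.3% higher, and the median difference was −0.56 for the members and −0.16 for all genes. As deposited, this contrast holds a shift of −0.17 in the median of all genes relative to libraries with medians set equal, and the members' differences include it. With equal medians 29 members were called lower and 6 higher. Over the alternatives of scaling, filter and fit, 28 to 33 members were called lower. IFI44L was lower by −2.34 (SE 0.08, limma adjusted p = 1.69e-06), OAS2 by −2.04 (SE 0.09, adjusted p = 2.99e-06), IFI6 by −1.69 (SE 0.17, adjusted p = 0.000109) and IFI27 by −1.39 (SE 0.10, adjusted p = 2.9e-05). In all, 12 members were past 2-fold lower under DMSO, also EPSTI1 (−1.43), IFI44 (−1.42), XAF1 (−1.39), CMPK2 (−1.22), OAS1 (−1.10), IFIT1 (−1.05), MX1 (−1.04) and USP18, just at the 2-fold line. How many of all genes were past 2-fold here was not counted. The 4 higher ones were ISG20 (1.83, limma adjusted p = 1.11e-05), IRF1 (0.92, adjusted p = 6.19e-06), SAMD9 (0.72, adjusted p = 4.48e-06) and TRIM25 (0.48, adjusted p = 2.61e-05). ISG15 differed by −0.23 (adjusted p = 0.0132), a call lost with equal medians and without shGFP DMSO 2 or shMLKL DMSO 2 (up to 0.388). IFIH1, IFIT2, IFITM2, IFI35, MX2 and RSAD2 were uncalled under DMSO.

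The same DMSO comparison against parental cells looked different. In the single libraries of the other experiment 3 of 42 members were at least 2-fold higher in shMLKL than in parental cells under DMSO and 1 lower, against 7.08% of all genes higher and 6.45% lower. The 3 higher members are 7.14% of the 42, near the share of all genes, and are not read as a result about the module. The median difference was 0.20 for the members and 0.07 for all genes. Above 0 lay 30 of 42 members, and the share of all genes above 0 was not counted. OAS2 had 50.4 FPKM in shMLKL and 18.7 in parental cells, IFI35 57.7 and 27.8, and IFIT1 61.4 and 29.5. With transcripts that Cufflinks assembled outside RefSeq added, an alternative chosen after seeing the data, the difference was 0.53 for OAS2, against 1.39, and 0.22 for IFIT1, against 1.03, both under 2-fold, and 1.36 for IFI35, against 1.03. IFI27 had 244 in shMLKL and 222 in parental cells, and IFI6 261 and 181. The 1 lower member, IFI44L, was listed at 0 in the shMLKL library and at 1.35 in the parental one. SAMD9L, also listed at 0 there, was under the 1 FPKM minimum for this pair. With assembled transcripts added, both were lower in shMLKL cells, IFI44L by −3.43, against −1.24, and SAMD9L by −1.29. Across the 42 members the differences of the 2 experiments, which share no library, had a Spearman rho of −0.26 and a Pearson r of −0.16, given as a description. These levels come from tables made separately, with no replicate, and the difference between the experiments was not tested.

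**Figure D4:**
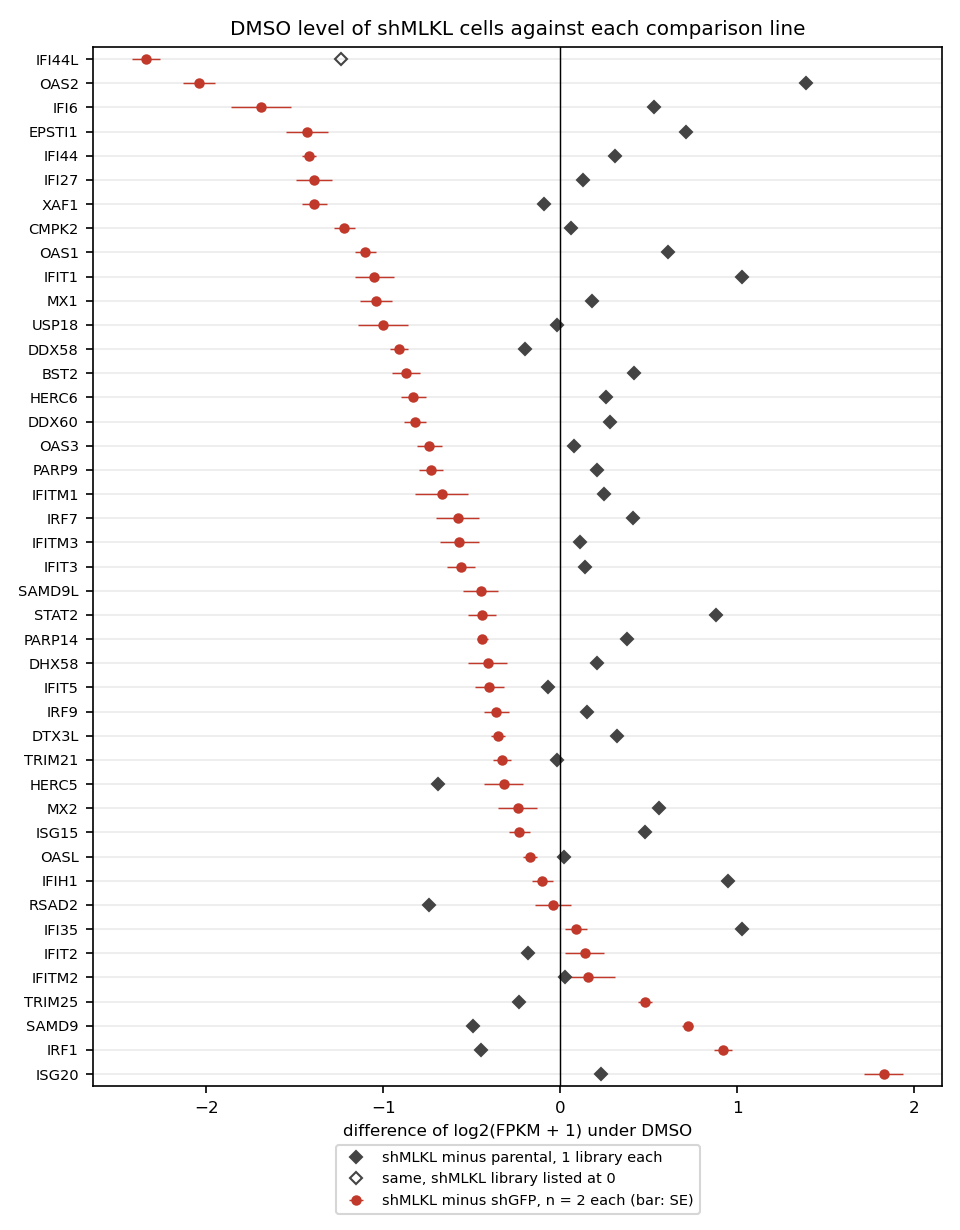
Difference of log2(FPKM + 1) under DMSO for each member: shMLKL minus shGFP (red circles, 2 libraries a group, bars SE) and shMLKL minus parental (dark diamonds, 1 library each; open where the shMLKL library is listed at 0). The circles lie below 0 for 36 of 43 members, and the diamonds above 0 for 30 of 42. The medians of all genes were −0.16 and 0.07, and their shares on each side of 0 were not counted.

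Under TBZ the lines lay closer together for many members. In shMLKL against shGFP cells 13 members were higher and 19 lower, against 20.7% and 31.0% of all genes, with a median of −0.10 for the members and −0.06 for all genes. The 19 that were lower under TBZ were all lower under DMSO too. Another 5 were lower under DMSO and higher under TBZ: IFIT1 (−1.05 and 0.31), IFIT3 (−0.56 and 0.56), IFIT5 (−0.40 and 0.56), STAT2 (−0.44 and 0.25) and TRIM21 (−0.33 and 0.33). How many of all genes had either pair of calls was not counted, and the same fit gave the spread of both contrasts. The STAT2 call under DMSO was lost with quantile normalization (limma adjusted p 0.0535). Under TBZ the calls of IFIT1 and STAT2 were each lost without any of 5 or more single libraries (adjusted p up to 0.193 for IFIT1 and 0.18 for STAT2). The largest remaining deficits under TBZ were those of IFI44L (−1.80), IFI6 (−1.31), IFI27 (−1.30), OAS2 (−1.16) and IFI44 (−1.10), and the largest excesses those of IFIT2 (0.90), IRF1 (0.74), IFITM2 (0.70) and ISG20 (0.65). Against the DMSO level of the other experiment, measured in other libraries, the 5 h response had a Spearman rho of −0.24 over the 43 members in shMLKL cells and of 0.04 in shGFP cells (with parental levels), given as a description.

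Set side by side, the response was larger at 12 h than at 4 or 5 h, though line and experiment differ between the times. After 4 h in parental cells 20 of 42 members were at least 2-fold higher and 1 lower, against 9.49% and 13.8% of all genes, with medians of 0.96 for the members and −0.23 for all genes. After 12 h in shMLKL cells 38 of 43 were at least 2-fold higher and 1 lower, against 9.48% and 11.0% of all genes, with medians of 2.30 and −0.13. A median of 2.30 is a 4.92-fold change. The 2 lower ones were listed at 0 after TBZ: OAS2 at 4 h (18.7 FPKM under DMSO) and DHX58 at 12 h (5.67 under DMSO). An exact 0 in these files can be a failed estimate, so neither is read as a fall. Leaving out genes listed at 0 in either library, an alternative chosen after seeing the data, left 20 higher and 0 lower at 4 h and 36 higher and 0 lower at 12 h. These pairs of single libraries allow no test.

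Several members that were uncalled or called lower in a line at 5 h are set beside their 12 h values in the single libraries, where members varied. DHX58 was listed at 0 after TBZ, and BST2 had 376 FPKM after 12 h and 208 under DMSO, a difference of 0.85. IFI6 had 910 FPKM after 12 h and 261 under DMSO in shMLKL cells, and at 4 h 216 after TBZ and 181 under DMSO in parental cells. ISG15 had 2105 FPKM after 12 h and 510 under DMSO, the highest level of any member, and 697 and 366 at 4 h. IFITM1, called lower at 5 h in shGFP cells, had 21.2 and 22 FPKM at 4 h and 211 and 26.3 at 12 h. HERC5 had 2.99 and 2.95 at 4 h and 17.7 and 1.45 at 12 h. Members with large 5 h changes differed among themselves at 4 h. XAF1 had 3.29 FPKM after TBZ and 3.88 under DMSO in parental cells, and IFIT5 12.9 and 17.2, whereas IFIH1 had 129 FPKM after TBZ and 10.9 under DMSO, ISG20 61.1 and 7.08, IRF1 90.5 and 24.4, and SAMD9 123 and 41.8. These are sums over RefSeq transcripts. With assembled transcripts added, as described below, XAF1 and IFIT5 rose at 4 h (1.08 and 0.73) and IFIH1 rose less (1.97). At 12 h IRF1 had 102 FPKM after TBZ and 17.6 under DMSO, and TRIM25 128 and 58.2, differences of 2.47 and 1.12 that lie near those at 4 h (1.85 and 1.25). The largest 12 h differences among members above 0 in both libraries were those of RSAD2 (4.77; 311 and 10.4 FPKM), IFIT2 (4.07; 443 and 25.5) and ISG20 (3.88; 139 and 8.50). The smallest was that of IRF9 (0.48; 71.5 and 51.1). Over the members the 4 h response of parental cells and the 5 h response of shGFP cells had a Spearman rho of 0.67 (42 members), and the 12 h and 5 h responses of shMLKL cells one of 0.42 (43 members), with no library shared in either pair.

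**Figure D5:**
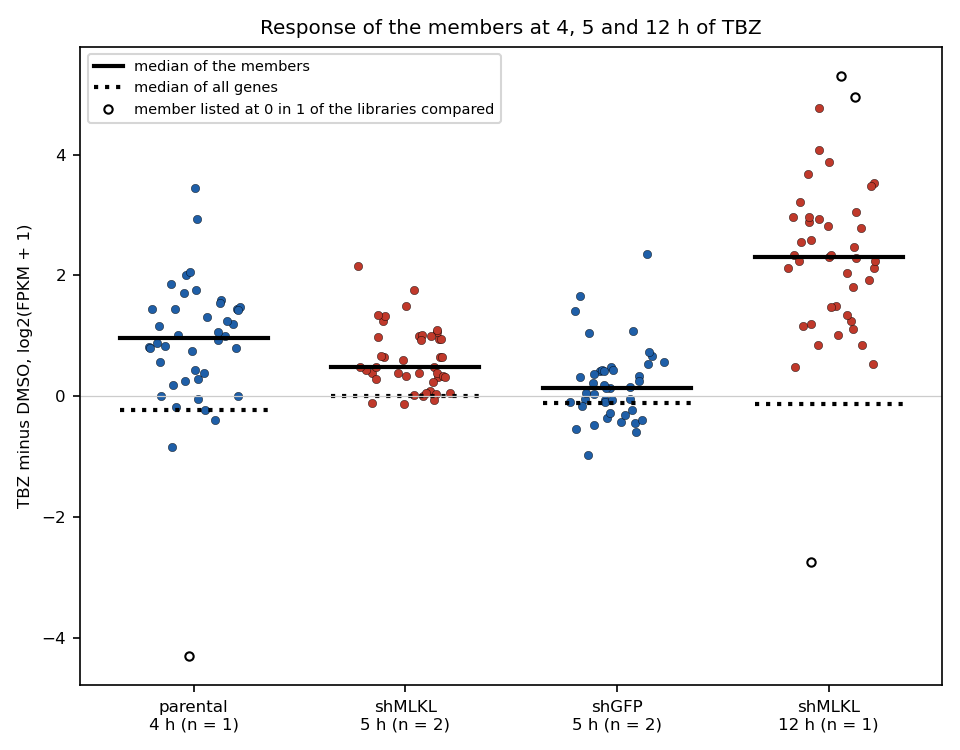
TBZ minus DMSO on the log2(FPKM + 1) scale, 1 point a member, at 4 h in parental cells, 5 h in shMLKL and shGFP cells and 12 h in shMLKL cells. Solid bars are member medians (0.96, 0.48, 0.14 and 2.30) and dotted bars medians of all genes; open circles mark members listed at 0 in 1 of the libraries compared.

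Single transcripts carried some of these sums. OAS1 encodes isoforms that differ at their carboxy terminus, and the transcript NM_002534 had 278 FPKM after 12 h of TBZ and 43.9 under DMSO in shMLKL cells, whereas NM_016816 was listed at 0 in both and at 32.3 after 4 h and 13.1 under DMSO in parental cells. Among RefSeq transcripts, OAS2 under DMSO was held in parental cells by the short NM_001032731 (18.7 FPKM), with the 2 other transcripts listed at 0. In shMLKL cells these 2 had 128 and 129 FPKM after 12 h and 16.1 and 15.5 under DMSO. There NM_001032731 had 18.9 FPKM under DMSO and was listed at 0 after 12 h. Parental cells also held assembled OAS2 transcripts: with these added the DMSO difference was 0.53, against 1.39. An exact 0 can be a failed estimate, so the zeros of OAS1 and OAS2 transcripts are not read as absent isoforms. IRF7 was spread over 3 transcripts, of which NM_001572 had 100 FPKM after 12 h and 45.4 under DMSO. Cufflinks also assembled transcripts outside RefSeq for some members. Adding those of the same gene, an alternative chosen after seeing the data, raised the 12 h difference of IFIT1 to 3.66, against 0.54 from RefSeq transcripts alone, and changed that of DHX58 to 0.73. It lowered the 4 h difference of IFI44L to 0.11, against 2.01, and of IFIH1 to 1.97, against 3.45. At 4 h it also gave 1.60 for ISG20, against 2.94, 0.79 for EPSTI1, against 2.06, and −0.14 for STAT2, against 0.83. The sign changed too for XAF1 (1.08, against −0.18), IFIT5 (0.73, against −0.39) and IFIT1 (−0.06, against 0.75). For OAS2, whose RefSeq transcripts were listed at 0 after 4 h of TBZ, the difference became larger, −5.15, against −4.30.

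Of the 43 members 22 sit in 9 clusters of neighbours within 100 kb, and neighbours did not always respond alike. The IFIT2, IFIT3, IFIT1 and IFIT5 genes lie 8080 to 51577 bases apart on chromosome 10, yet in shGFP cells IFIT2 rose by 0.57 and IFIT1 fell by 0.98. The difference between these neighbours was not tested. OAS1, OAS3 and OAS2 lie 18525 and 5218 bases apart on chromosome 12 and rose together in shMLKL cells (0.94, 0.94 and 0.65). IFI44L and IFI44 (3646 bases apart, chromosome 1) were both past 2-fold lower under DMSO in shMLKL cells. SAMD9 and SAMD9L (12031 bases apart, chromosome 7) had opposite calls there (0.72 and −0.45). The SAMD9L call was lost with quantile normalization (limma adjusted p 0.13). Its DMSO means were low, 0.97 FPKM in shMLKL and 1.69 in shGFP cells.

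Other genes of the pathway, taken from lists outside the members, are given next. Of 8 receptor and receptor kinase genes tested, 7 were called higher and 0 lower in shMLKL cells and 8 and 0 in shGFP cells, with medians of 1.04 and 1.06. Of all genes 20.0% were called higher and 17.6% lower in shMLKL cells, and 19.1% and 37.3% in shGFP cells. IFNAR2 rose by 2.75 in shMLKL cells, with 33.4 and 39.9 FPKM under TBZ and 5.78 and 3.61 under DMSO, and by 2.25 in shGFP cells, with 32.6 and 32.1 under TBZ and 6.78 and 5.36 under DMSO. In the other experiment IFNAR2 was listed at 0 after TBZ at both times and at 2.53 FPKM in parental and 1.99 in shMLKL cells under DMSO; an exact 0 can be a failed estimate and is not read as a change. IFNAR1 rose by 0.75 in shMLKL and 0.70 in shGFP cells. IFNLR1, a gene of the same list for the type III interferon receptor, was at 0.0637 to 0.322 FPKM in the 8 libraries and was not tested. In the single libraries it was at 0.76 FPKM or less. Among the ligands, IFNL1, a type III interferon, rose by 1.14 (limma adjusted p = 0.00201) in shMLKL cells, with 2.34 and 2.90 FPKM under TBZ and 0.477 and 0.812 under DMSO, and by 1.18 (adjusted p = 0.00106) in shGFP cells, with 2.24 and 2.16 under TBZ and 0.688 and 0.187 under DMSO. IFNB1, the type I interferon of non-immune cells, was at 0.178 FPKM or less in all 8 libraries and was not tested. In the single libraries IFNB1 had 2.26 FPKM after 4 h and 0.294 under DMSO in parental cells, and 1.74 after 12 h and 0.226 under DMSO in shMLKL cells. Of 37 other antiviral interferon targets tested, 23 were called higher and 3 lower in shMLKL cells, 20 higher and 5 lower in shGFP cells, and 5 higher and 25 lower in shMLKL against shGFP cells under DMSO. For these and the following lists the shares over all genes were 20.0% higher and 17.6% lower in shMLKL cells, 19.1% and 37.3% in shGFP cells, and 18.3% and 44.8% between the lines under DMSO. CXCL10, a T cell chemokine, had 10.7 and 11.9 FPKM in shMLKL TBZ libraries, 2.21 and 1.86 in shMLKL DMSO, 17.7 and 17.5 in shGFP TBZ and 10.5 and 11.3 in shGFP DMSO, a DMSO difference of −1.98. TNFSF10, which encodes the death ligand TRAIL, was lower by −1.67 under DMSO and rose by 2.65 in shMLKL and 1.55 in shGFP cells after TBZ. GBP1, a guanylate-binding protein, rose by 2.52 in shMLKL and 3.98 in shGFP cells. Of 10 negative regulators tested, 4 were called higher and 2 lower in shMLKL cells and 3 higher and 2 lower in shGFP cells, the lower calls being near or under those shares. SOCS3, an inhibitor of JAK kinases, rose by 0.46 in shMLKL and 2.10 in shGFP cells. Of 11 sensing adaptors and kinases tested, 6 were called higher and 3 lower in shMLKL cells and 7 higher and 2 lower in shGFP cells. MB21D1, which encodes the DNA sensor cGAS, rose by 1.30 in shMLKL and 1.31 in shGFP cells. Of 6 other STAT and IRF factors tested, 4 were called higher in shMLKL and 5 in shGFP cells and 0 lower in either.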

How the data were processed

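Poly-A RNA of 12 HT-29 libraries was sequenced as stranded paired ends of 100 nt, per the labels' protocols. The submitters' processing notes name TopHat2 2.0.13, Cufflinks 2.2.1, STAR 2.4.0f1, GATK and hg19, without roles. The authors deposited 1 FPKM table for the 8 libraries with 5 h of TBZ (its unit was read from the values and labels) and Cufflinks transcript files with FPKM for the 4 single libraries. No counts were used here, so depth is unknown.

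Of 29437 table lines, the line of highest mean was kept for each of 19128 symbols. Genes with a group mean of at least 1 FPKM were tested (10364) with limma 3.58.1 in R 4.3.3 on log2(FPKM + 1), with all 4 groups in 1 fit, a mean trend, two-sided tests and Benjamini-Hochberg adjustment in each of 5 contrasts. The fit was tested on simulated data. In the single libraries each gene's value was the sum over its RefSeq transcripts, and differences of 1 or more on the log2 scale were counted as 2-fold, with no test. Levels are not compared across the separately made tables. Python 3.11.15 was used for the rest.

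The members, pathway lists and marker lists were chosen with earlier results of these data known. Values in every library are given for members among the 4 largest called differences of a contrast (5 FPKM or more in 1 group), for transcription factors and sensors, and for MLKL. Alternatives covered the pseudocount, filter, scaling, trend, groups in the fit, duplicate symbols, replicate block and each library left out.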

Additional observations from a re-analysis of the deposited data

Results flagged for a closer look

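For 26 members the 5 h effect of TBZ differed between the lines by a test of the difference itself (limma on log2(FPKM + 1), Benjamini-Hochberg adjusted over 10364 genes, 2 libraries a group). The values are the effect in shMLKL cells minus that in shGFP cells. The difference was above 0 and called under every alternative that tested the gene (STAT2 was not tested with a minimum of 5 FPKM) for DDX58 (0.72), XAF1 (1.08), IFI44 (0.32), OAS1 (0.60), OAS2 (0.88), STAT2 (0.69), IFIT1 (1.36), IFIT3 (1.11), IFIT5 (0.96), PARP9 (0.63), PARP14 (0.34), DTX3L (0.40), CMPK2 (0.81) and TRIM21 (0.66). It was above 0 and lost its call under at least 1 alternative for IFIH1 (0.35), DDX60 (0.41), IFI44L (0.54), OAS3 (0.46), IRF9 (0.48), IFIT2 (0.76), HERC6 (0.50), SAMD9L (0.57), RSAD2 (0.52) and EPSTI1 (0.74). It was below 0 for ISG20 (−1.18) and SAMD9 (−0.60), called under every alternative tried. Over all genes tested 14.6% were called above 0 and 7.66% below.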

How the results depend on the processing

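Of 3802 single-member results over the alternatives, 3571 kept their call and its direction or stayed uncalled, 190 lost the call, 41 gained one and 0 changed direction with a call. The direction of results uncalled in both fits was not compared. With no filter on low values, 4 members were called lower after TBZ in shGFP cells (9 in the reported fit) and 14 had a larger response in shMLKL cells (24). In the single libraries, leaving out genes listed at 0 gave 0 lower members at 4 h, 0 at 12 h and 0 for shMLKL against parental cells under DMSO (1 each as reported). Adding assembled transcripts gave 0 lower at 12 h, and 1 higher and 2 lower for shMLKL against parental cells under DMSO (3 and 1 as reported), and equal medians gave 1 higher there. The zero and assembled-transcript alternatives were chosen after seeing the data. The cause was not tested.

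Leaving out 1 library at a time gave 27 to 32 members higher and 0 to 1 lower after TBZ in shMLKL cells, 16 to 20 higher and 4 to 11 lower in shGFP cells, 17 to 26 above 0 and 2 below for the difference, 4 higher and 30 to 33 lower for shMLKL against shGFP under DMSO, and 9 to 12 higher and 15 to 19 lower under TBZ. Calls kept in every such fit numbered 26 of 32, 20 of 29, 18 of 26, 33 of 37 and 24 of 32, in that order. Equal-numbered libraries did not deviate together (correlations of −0.066 to 0.0282), so they share only a number. With the replicate number as a block, 32 and 0 members were called higher and lower in shMLKL cells, 18 and 9 in shGFP cells, 25 and 2 for the difference, 4 and 32 under DMSO and 13 and 19 under TBZ. Depth is unknown, and 2 libraries a group limit the precision.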
